A study of Mus musculus with 4 samples.

Results

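Inter-alpha-trypsin inhibitor heavy chains, serpins of the antitrypsin family and serum amyloid P component are plasma proteins made mainly by hepatocytes, and 10 of their genes were followed here. They were Itih1, Itih2, Itih3, Itih4, Serpina3n, Serpina3m, Serpina3k, Serpina6, Serpina12 and Apcs. A gene was measured when the array annotation gave a probe set its symbol and no other. This held for 8 of the 10, with 9 probe sets, out of 18194 genes on the array. Serpina3m and Serpina3k had no such probe set and are not analysed here. All 8 passed the detection limit used below, a log2 value of 4 on at least 1 array, as did 8650 genes in all.

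Livers came from male C57BL/6J mice, 8 to 12 weeks old when the diets began, that ate a low-fat diet (10% of energy as fat) or a high-fat diet (45%) for 20 weeks, with palm oil in place of lard in both. In the last week the mice received 2 intraperitoneal injections of clodronate liposomes, which kill phagocytes that ingest them, or of phosphate-buffered saline (PBS). The 4 groups were low-fat PBS, low-fat clodronate, high-fat PBS and high-fat clodronate, each with 1 Affymetrix array of RNA pooled from 8 mice (low-fat) or 10 mice (high-fat). No group had a second array, so the spread between mice was not measured and differences between 2 arrays carry no p-value; their number limits the precision. The control injection held no liposomes, so what the carrier, the drug and the loss of phagocytes each did cannot be told apart.

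The heavy chains ITIH1, ITIH2 and ITIH3 are secreted bound to bikunin, the protease inhibitor encoded by Ambp, and are transferred onto hyaluronan, where they stabilise extracellular matrix. ITIH4 circulates without bikunin and is an acute phase protein. Serpins trap serine proteases through a reactive loop. SERPINA3N is an acute phase inhibitor of leukocyte proteases, while SERPINA6 (corticosteroid-binding globulin) carries glucocorticoids instead of inhibiting proteases. SERPINA12, or vaspin, is an inhibitor first known as an adipokine. Apcs encodes a pentraxin that is the main acute phase protein of its family in mice.

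The sequences in front of 3 of these genes are shown: Serpina12 is the single member that passed a test, Apcs had the widest clodronate difference, and Itih4 and Apcs hold the matches to the acute phase STAT motif. Each is the 250 bases before the transcription start in RefSeq (GRCm38.p6), 5′ to 3′ on the gene's strand, with motif matches in capitals. They lie at chr12:104044444-104044693 (minus strand) for Serpina12, chr14:30886226-30886475 (plus strand) for Itih4 and chr1:172895055-172895304 (minus strand) for Apcs.
Serpina12: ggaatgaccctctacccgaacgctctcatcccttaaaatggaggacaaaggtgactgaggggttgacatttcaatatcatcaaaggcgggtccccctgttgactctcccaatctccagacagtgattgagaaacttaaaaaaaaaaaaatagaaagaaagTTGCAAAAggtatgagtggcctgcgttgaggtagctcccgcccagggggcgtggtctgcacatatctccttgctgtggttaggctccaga
Itih4: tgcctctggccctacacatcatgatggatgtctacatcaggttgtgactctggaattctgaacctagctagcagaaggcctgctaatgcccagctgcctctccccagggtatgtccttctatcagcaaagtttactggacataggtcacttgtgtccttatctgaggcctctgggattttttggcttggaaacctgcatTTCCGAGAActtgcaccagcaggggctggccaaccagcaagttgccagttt
Apcs: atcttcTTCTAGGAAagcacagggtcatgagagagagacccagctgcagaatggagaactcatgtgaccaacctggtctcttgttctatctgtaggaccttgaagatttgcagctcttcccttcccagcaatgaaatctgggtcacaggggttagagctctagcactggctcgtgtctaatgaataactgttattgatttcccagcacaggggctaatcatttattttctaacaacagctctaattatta
Both strands of the 250-base windows of 7 members in the promoter table were searched for 5 motifs of liver and acute phase factors. TTCNNNGAA, a STAT motif, matched once in Itih4, as TTCCGAGAA from base 51 to base 43 before the start, and once in Apcs, as TTCTAGGAA from base 244 to base 236. It occurs in 7.02% of all 32851 windows. TTGCNNAA, a C/EBP motif present in 9.56% of windows, matched in Serpina12 from base 90 to base 83 and in Itih2. An NF-κB motif in 1.41% of windows and ACANNNTGT, a glucocorticoid receptor motif in 5.84%, each matched once in Serpina3n. GTTAAT, a part of the HNF1 motif, is in 6.43% of windows and matched in Itih1. Itih3 held none of the 5, and no matches overlapped. In the windows of Itih3 and Serpina3n, 200 and 62 bases lie inside the RefSeq span of the gene, so these are not shown. A match describes these letters only.

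The deposited values were log2 expression on a common scale for the 4 arrays. Array medians over all probe sets lay between 2.73 and 2.79. Of the 12 listed hepatocyte markers, 11 had a probe set, and all 11 were at 11.2 or more on the 4 arrays. Over the 8650 detected genes the median of the high-fat clodronate array was 0.10 (log2) below that of the low-fat clodronate array. Differences of the members between these 2 are therefore also given relative to the array medians, and those of other genes as deposited only. Of 12 Kupffer cell markers, 12 fell after clodronate (limma, Benjamini-Hochberg adjustment). With values below 4 set to 4 the count was 10, and without a mean-dependent prior it was 8. Their summed linear signal was 6232 (low-fat) and 5723 (high-fat) with PBS, against 91.2 and 196 after clodronate. In bulk liver, fewer cells of a type and less RNA per cell cannot be told apart.

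**Figure D1:**
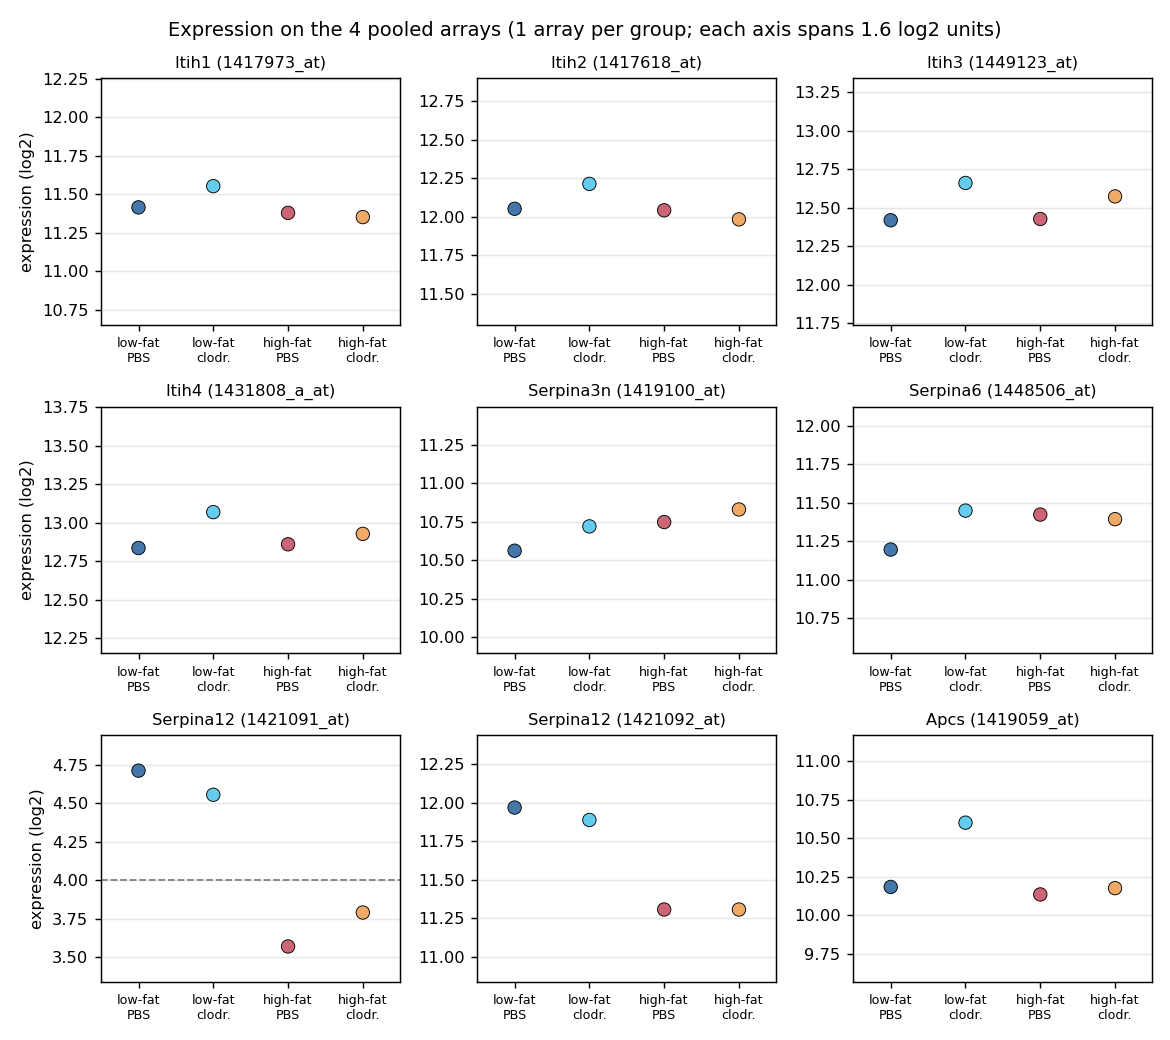
Expression (log2) of the 9 probe sets of the 8 genes on the 4 arrays, 1 point per pooled array with no error bar because no group was replicated; every vertical axis spans the same number of log2 units, and the dashed line marks the detection limit of 4. Both Serpina12 probe sets are lower on the high-fat diet, while Apcs stands at 10.60 on the low-fat clodronate array and between 10.13 and 10.18 on the others.

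Serpina12 was lower on the high-fat diet with either injection. Its brighter probe set was at 11.97 with PBS and 11.89 with clodronate on the low-fat diet, and at 11.31 and 11.31 on the high-fat diet. Both high-fat arrays were below both low-fat arrays, and within a diet the injections differed by -0.08 and -0.00022. The diet difference was -0.66 (log2) with PBS, or 1.58-fold lower, and -0.58 with clodronate. Relative to the array medians the latter was -0.48. At a threshold of 1.5-fold, 1 of the 8 members was lower on the high-fat diet with PBS, against 1.47% of all detected genes, and 0 were higher, against 2.15%. With clodronate 0 of 8 reached 1.5-fold, Serpina12 lying just short of it at 1.4965-fold lower, against 4.79% of genes lower and 1.69% higher. The median diet difference of the 8 members was -0.00075 with PBS and -0.17 with clodronate, beside 0 and -0.08 over all genes. Relative to the array medians the members' median with clodronate was -0.07.

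Averaged over the injections, Serpina12 fell by 0.62 ± 0.06 on the high-fat diet (SD of the differences with the 2 injections, n = 2; limma, Benjamini-Hochberg adjusted p = 0.00159). This was the only call among the 8 members, and 0 rose. Over all genes 0.821% fell and 0.867% rose. Serpina12 stood at place 24 of 8650 by p. The call depends on how the variance was modelled: the adjusted p was 0.322 in limma without a mean-dependent prior, where 0 genes were called, 894 at an unadjusted p under 0.05. The test has 1 residual degree of freedom per gene, namely how far the differences with the 2 injections disagree. Most weight in its variance comes from the prior, drawn from other genes of like level, with a mean of 8.46 degrees of freedom. The adjusted p is therefore not set by the Serpina12 values alone. The test measures no spread between replicate arrays or between mice. An SD of 2 differences likewise shows how alike they were, not how precise.

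A second probe set of Serpina12, near the detection limit, went the same way. It was at 4.71 with PBS and 4.56 with clodronate on the low-fat diet, and below 4 on both high-fat arrays, at 3.57 and 3.79. With values below 4 taken as 4 it was at least 1.64-fold lower with PBS and at least 1.47-fold lower with clodronate on the high-fat diet. When both probe sets were averaged, the limma adjusted p of Serpina12 for diet was 0.0505, with a difference of -0.79. Tested as a probe set of its own among 16298, the brighter one kept its call (limma adjusted p = 0.0363). All 4 adipocyte markers with a probe set, among them Adipoq and Lep, were below 4 on all 4 arrays.

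**Figure D2:**
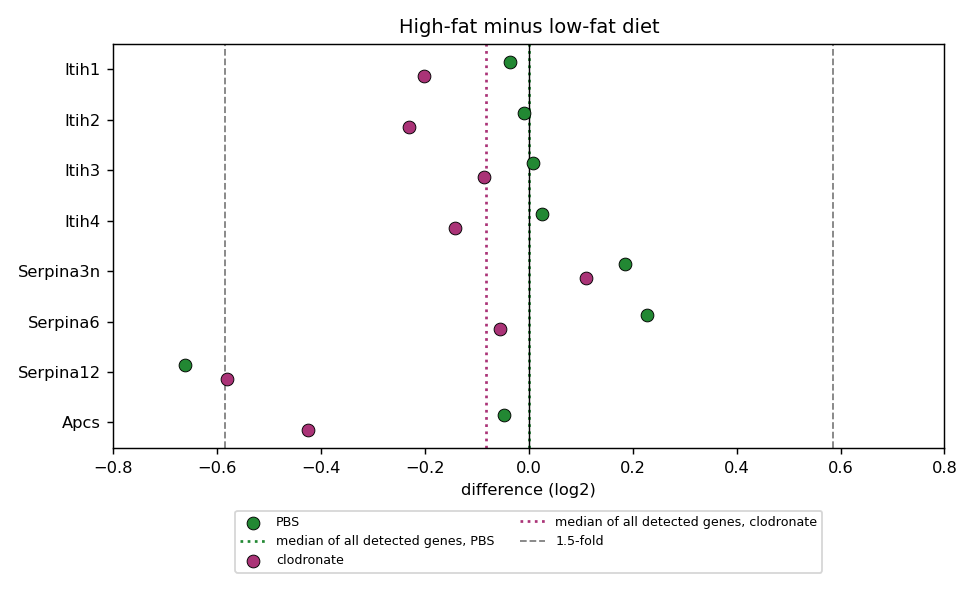
Difference between the high-fat and low-fat arrays (log2) for each of the 8 genes, with PBS in green and with clodronate in purple; dotted lines give the median of all detected genes and dashed lines 1.5-fold. Serpina12 lies at -0.66 and -0.58, apart from the other 7 genes, which lie between -0.43 and 0.23.

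The heavy chain genes differed little with diet. Itih1 was at 11.41, 11.55, 11.38 and 11.35 on the low-fat PBS, low-fat clodronate, high-fat PBS and high-fat clodronate arrays in this order. Itih2 was at 12.05, 12.21, 12.04 and 11.98 on the same arrays. With PBS the diet differences of Itih1, Itih2, Itih3 and Itih4 were -0.04, -0.0098, 0.0083 and 0.02, and 83.8% of detected genes differed by at least as much as Itih1, the widest of these. With clodronate they were -0.20, -0.23, -0.09 and -0.14, and relative to the array medians -0.10, -0.13, 0.01 and -0.04, so that of Itih3 changed sign. No heavy chain was called for diet, with limma adjusted p between 0.539 and 0.863.

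Serpina3n and Serpina6 were at most slightly higher on the high-fat diet. Serpina3n was lowest in the low-fat PBS pool, at 10.56, and stood at 10.72, 10.75 and 10.83 in the low-fat clodronate, high-fat PBS and high-fat clodronate pools. Its diet differences were 0.19 with PBS and 0.11 with clodronate, the latter 0.21 relative to the array medians. The mean of the differences as deposited was not called (limma adjusted p = 0.459). Serpina6 was also lowest in the low-fat PBS pool, at 11.20, while the other 3 pools lay between 11.39 and 11.45. Its diet difference was 0.23 with PBS and -0.06 with clodronate, the latter 0.05 relative to the array medians, and their mean was not called (limma adjusted p = 0.737). Apcs differed by -0.05 with PBS and by -0.43 with clodronate, where the low-fat clodronate array stood high. Relative to the array medians the latter was -0.32, and the mean of both as deposited was not called (limma adjusted p = 0.35). The comparison with clodronate and the clodronate comparison on the low-fat diet share that array.

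After clodronate on the low-fat diet, 7 of the 8 genes were higher, all but Serpina12, where 59.7% of all detected genes were above 0. None reached 1.5-fold, against 1.75% of genes higher and 1.63% lower. The median difference of the members was 0.20, beside 0.04 over all genes. Apcs was at 10.18 with PBS and 10.60 with clodronate, 1.34-fold higher, and 8.31% of detected genes differed by at least as much. Among the 1293 genes with a mean of 10 or more, where differences are smaller, that share was 2.01%.

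Serpina6, Itih3 and Itih4 came next in size. Itih3 went from 12.42 with PBS to 12.66 with clodronate on the low-fat diet, a difference of 0.24. Itih4 went from 12.84 to 13.07, or 0.23, and Serpina6 from 11.20 to 11.45, or 0.25. Of all detected genes 22.5% differed by at least as much as Itih3, 23.7% as Itih4 and 21.4% as Serpina6. Among the 1293 genes of high level these shares were 5.57%, 6.34% and 5.34%. Itih1, Itih2 and Serpina3n were higher by 0.14, 0.16 and 0.16.

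On the high-fat diet the members' clodronate differences lay between -0.06 and 0.15, with a median of 0.02, beside -0.05 over all genes. With PBS and clodronate in this order, Itih3 was at 12.43 and 12.57, Itih4 at 12.86 and 12.93, and Serpina3n at 10.75 and 10.83. These 3 and Apcs, at 10.13 and 10.18, were higher, so that 4 of 8 were above 0, against 36.4% of all detected genes. The 4 others were lower, by 0.03 for Itih1, 0.06 for Itih2, 0.03 for Serpina6 and 0.00022 for Serpina12. Relative to the array medians all 8 were above 0, as were 53.5% of all detected genes, and the members' median was 0.09. None reached 1.5-fold, against 0.636% of genes higher and 2.98% lower, and the widest was Itih3 at 1.11-fold.

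**Figure D3:**
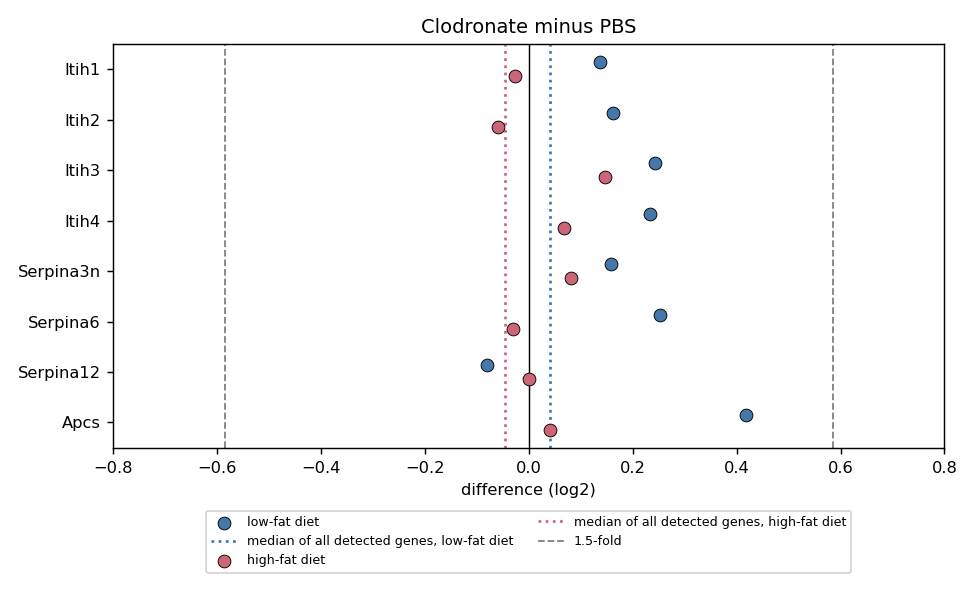
Difference between clodronate and PBS (log2) for each of the 8 genes, on the low-fat diet in blue and on the high-fat diet in red; dotted lines give the median of all detected genes on each diet and dashed lines 1.5-fold. All 16 points lie within 1.5-fold. The higher point is on the low-fat diet for 7 of the 8 genes, all but Serpina12, and for 65.9% of all detected genes.

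Averaged over the diets, 0 of the 8 members were called for clodronate in limma with Benjamini-Hochberg adjustment, where 0.116% of all genes rose and 0.971% fell. Itih3 came nearest, with a mean difference of 0.19 ± 0.07 (SD, n = 2; limma, adjusted p = 0.472), higher on both diets. Itih4 had 0.15 ± 0.12 (limma, adjusted p = 0.962) and Apcs 0.23 ± 0.27 (limma, adjusted p = 1). At an unadjusted p under 0.05 these 3 of 8 members would pass, against 4.74% of all genes. For diet, Serpina12 and Apcs, 2 of 8, would pass at that level, against 13.2% of all genes. Kupffer cell markers moved with clodronate as described above, and their part in these differences was not tested.

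The clodronate difference was lower on the high-fat than on the low-fat diet for 7 of 8 members, but also for 65.9% of all genes. Relative to the array medians it was lower for 5 of 8, a count for which the share of all genes was not taken, so nothing is read from it. The widest was that of Apcs, at -0.38 as deposited and -0.27 relative to the medians, and as deposited 20.9% of all genes and 2.55% of those of high level differed by at least as much. Serpina6 followed at -0.28, with 31.1% and 5.80%. Relative to the medians 30.8% of all genes differed by at least as much as Apcs, and 46.1% as Serpina6, then at -0.18. With 4 arrays this difference of differences has no test. The low-fat clodronate array was the highest of the 4 for 6 of the 8 members and for 36.6% of all genes, and after centring for 4 of 8 and 25.6%. On the high-fat diet with clodronate against the low-fat diet with clodronate, 7 of 8 members were below 0, as were 64.9% of all genes. After centring 5 of 8 members were, against 47.0% of all genes. Of 8 neutrophil markers with a probe set, S100a8 and S100a9 reached 4.15 and 4.05 on the low-fat clodronate array alone, and the other 6, with Mpo and Elane, were below 4 throughout. The part of these cells in the Apcs value was not tested.

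Ambp, the bikunin precursor, was measured at 13.60, 13.64, 13.56 and 13.52 in the low-fat PBS, low-fat clodronate, high-fat PBS and high-fat clodronate pools. Of 12 listed partner genes 4 were detected, and the hyaluronan synthases Has1, Has2 and Has3 and Tnfaip6, which transfers heavy chains to hyaluronan, were below 4 on all arrays. Cd44, a hyaluronan receptor of leukocytes, fell by 2.63 ± 0.46 after clodronate (SD over both diets, n = 2; limma, Benjamini-Hochberg adjusted p = 0.00013). Hyal2, a hyaluronidase, differed by 0.54 after clodronate with low-fat feeding and by -0.14 with high-fat feeding, without a call. Itih5, the neighbour of Itih2 and a heavy chain gene outside this set, was at 6.27, 5.79, 5.28 and 5.46 in the same order of pools, a diet difference of -0.99 with PBS and -0.33 with clodronate, whose mean of -0.66 did not pass (limma, adjusted p = 0.208).

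Itih4, Itih3 and Itih1 follow each other on chromosome 14 with no coding gene between them in RefSeq. The clodronate differences of the adjoining genes are given for the low-fat diet first. Mustn1 differed by 0.19 and 0.11, Nek4 by 0.65 and -0.06, and Spcs1, a signal peptidase subunit, by -0.04 and 0.0083. None of these 3 was called for either effect.

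The serpin members lie in 1 stretch of chromosome 12 that runs over 25 coding or transcribed pseudogenes from Serpina10 to Serpina3n, of which 13 had a probe set of their own and 8 were detected. Serpina10, Serpina1b and Serpina1c had diet differences between -0.13 and 0.14. Serpina11 was at 0.04 with PBS and -0.47 with clodronate, and their mean did not pass (limma, adjusted p = 0.525). Serpina4-ps1 comes next after Serpina12 among these coding genes and transcribed pseudogenes. It was at 10.06 and 10.71 with PBS and clodronate on the low-fat diet and at 9.56 and 8.59 on the high-fat diet. Its diet differences were -0.50 and -2.13, their mean having a limma adjusted p of 0.0534, and its clodronate difference was 0.65 (low-fat) and -0.98 (high-fat), a gap matched or passed by 0.173% of genes. Serpina3a and Serpina3i, the 2 other Serpina3 genes with a probe set, were below 4 on all arrays.

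**Figure D4:**
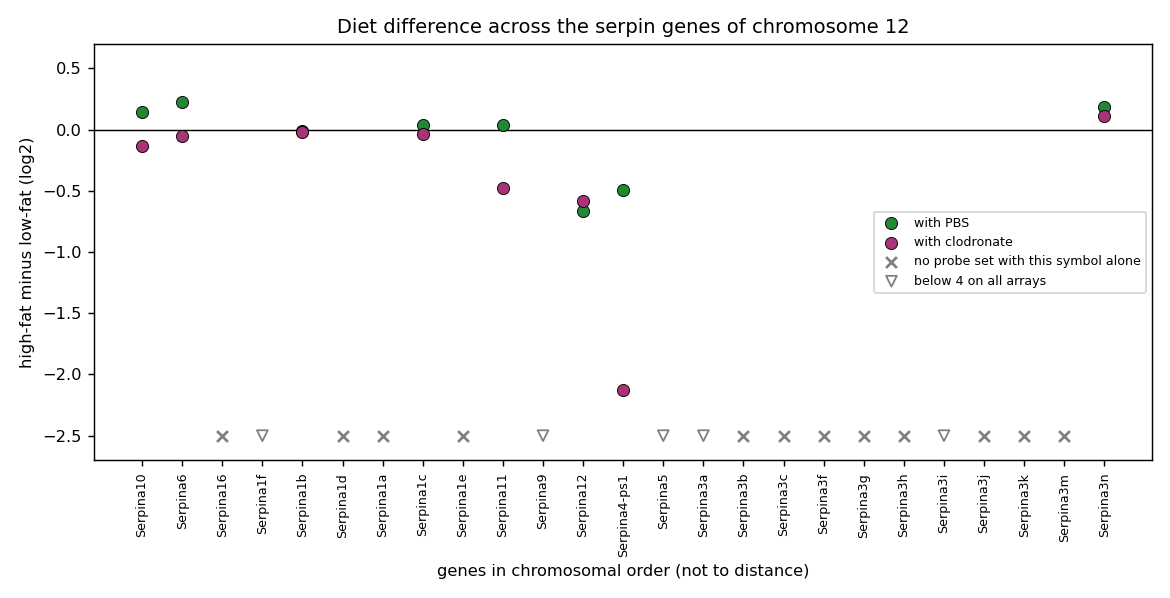
Difference between the high-fat and low-fat arrays (log2) for the serpin genes of chromosome 12 in chromosomal order, with PBS in green and with clodronate in purple; crosses mark genes without a probe set of their own and triangles genes below 4 on all arrays. Serpina12 and Serpina4-ps1 are lower on the high-fat diet with both injections, while Serpina6 and Serpina3n lie between -0.06 and 0.23.

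Of 16 other listed plasma serpins 11 were detected, 0 reached 1.5-fold in any comparison, and their median clodronate differences were 0.08 (low-fat) and -0.05 (high-fat). Serpina7, thyroxine-binding globulin, was the exception in the test and rose by 0.44 ± 0.19 after clodronate (SD, n = 2; limma, Benjamini-Hochberg adjusted p = 0.0495), from 10.49 to 11.06 and from 10.45 to 10.75, a call that was lost without a mean-dependent prior (limma adjusted p = 0.85) and held in 2 of 7 alternatives. Serpina11 differed by 0.36 and -0.15. The 8 detected members of the list with Pzp, Mug1, Ahsg and Kng1 had medians of 0.11 and -0.04 after clodronate and 0 calls. Of the 6 detected pentraxins and soluble pattern receptors, Fcna, a ficolin made by macrophages, fell by 1.80 ± 0.08 (SD, n = 2; limma, Benjamini-Hochberg adjusted p = 3.16e-05). Crp, the other short pentraxin of the list, was between 12.09 and 12.17 on the 4 arrays.

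Proteases were also listed, as possible targets. Of 12 listed serine proteases 3 were detected, the plasma zymogens Klkb1, Plg and F2, whose differences in the 4 comparisons lay between -0.10 and 0.12. The neutrophil proteases Elane, Ctsg and Prtn3 and the vaspin target Klk7 were below 4 on all arrays.

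Among 16 detected other acute phase genes 5 rose after clodronate and 0 fell (limma, Benjamini-Hochberg adjustment), where 0.116% of all genes rose, with median differences of 0.20 (low-fat) and 0.10 (high-fat). Saa1 rose by 0.88 ± 0.10 (SD, n = 2; limma, Benjamini-Hochberg adjusted p = 0.000198) and Orm1 by 0.29 ± 0.02 (SD, n = 2; limma, Benjamini-Hochberg adjusted p = 0.0297). Orm2, Lbp and Hp rose less evenly over the diets, by 2.03 ± 1.28, 0.59 ± 0.32 and 0.34 ± 0.17 (SD, n = 2; limma, Benjamini-Hochberg adjusted p = 0.0129, 0.0391 and 0.0465). Their calls held in 1, 2 and 3 of 7 alternatives, against 6 for Saa1 and 4 for Orm1. These rises depend on the variance model: 0 of the 16 genes rose without a mean-dependent prior, and 1 did with values below 4 set to 4 or without a filter on dim genes. For diet, averaged over the injections, 2 of the 16 genes were called higher with high-fat than with low-fat feeding. Over all genes 0.867% were, and without the prior 0 of the 16 were. Between the diets Saa1 rose by 0.91 ± 0.10 (SD, n = 2; limma, Benjamini-Hochberg adjusted p = 0.000457) and Saa4 by 0.53 ± 0.07 (SD, n = 2; limma, Benjamini-Hochberg adjusted p = 0.00728).

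In the STAT3 pathway, which carries interleukin-6 signals to acute phase genes, 9 of 10 listed genes were detected and 0 were called for clodronate. Cebpb, a transcription factor of acute phase promoters, rose with the high-fat diet by 0.39 ± 0.09 (SD, n = 2; limma, Benjamini-Hochberg adjusted p = 0.0445). Socs3, the feedback inhibitor, was 1.54-fold higher with PBS on the high-fat diet, without a call. Glucocorticoid genes, listed because SERPINA6 carries the hormone, had 11 of 12 detected. Fkbp5, a glucocorticoid-induced immunophilin, was at 5.26 in the low-fat PBS pool and between 6.17 and 6.29 in the others. Tsc22d3, from the same list, was instead lowest in the low-fat clodronate pool, at 9.84, and between 10.30 and 10.45 in the others. After clodronate Fkbp5 differed by 0.94 with low-fat feeding and by -0.12 with high-fat feeding. For Tsc22d3 these differences had the opposite signs, at -0.46 and 0.10. Neither gene was called for clodronate or diet. Mt1 rose after clodronate by 1.23 ± 0.49 (SD, n = 2; limma, Benjamini-Hochberg adjusted p = 0.00928), and Dusp1 fell on the high-fat diet by 0.47 ± 0.01 (SD, n = 2; limma, Benjamini-Hochberg adjusted p = 0.0443). In the growth hormone list, 9 of 12 were detected. Cish was 3.30-fold higher after clodronate with low-fat feeding and 1.72-fold lower with high-fat feeding, and Socs2 2.13-fold higher and 1.61-fold lower, without a call. Bcl6, a repressor of growth hormone targets, rose with the high-fat diet by 0.67 ± 0.00012 (SD, n = 2; limma, Benjamini-Hochberg adjusted p = 0.00647). The calls of Mt1, Cebpb, Dusp1 and Bcl6 were lost without a mean-dependent prior, at limma adjusted p of 0.289, 0.41, 0.352 and 0.321. In the same order they held in 3, 2, 1 and 4 of 7 alternatives.

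Genes with the pattern nearest to the 2 most variable members were sought among 7937 genes at 4 or more on all arrays, by the Euclidean distance between log2 profiles centred over the 4 arrays. Serpina12, with a range of 0.66, was nearest to Denn2b at a distance of 0.023, Acly at 0.032 and Snap29 at 0.05. Acly, ATP citrate lyase, which supplies acetyl-CoA for fatty acid synthesis, was at 12.52, 12.44, 11.85 and 11.82 in the low-fat PBS, low-fat clodronate, high-fat PBS and high-fat clodronate pools. It fell by 0.65 ± 0.04 on the high-fat diet (SD, n = 2; limma, Benjamini-Hochberg adjusted p = 0.000815), a call lost without a mean-dependent prior (limma adjusted p = 0.321), while Denn2b and Snap29 did not pass. Acly was picked for its likeness to Serpina12 on these same arrays. Its diet difference therefore followed from that choice, and its p-value is no separate evidence. Apcs, with a range of 0.47, was nearest to Xpo5, Cldn2 and Lamtor3, at distances of 0.023, 0.027 and 0.029. A likeness over 4 arrays describes these arrays only.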

How the data were processed

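Liver RNA of 36 mice was measured as 4 pools on 4 arrays. The deposited table holds log2 expression values of 45101 probe sets, computed by the authors with GCRMA; version 2.24.1 is named in the submitters' processing notes. It corrects for probe sequence, scales the arrays together and compresses small differences of dim probes. Of these probe sets 34958 carried 1 gene symbol, 932 several and 9211 none, and the Entrez identifiers of the 9 member probe sets gave the same symbols in RefSeq (GRCm38.p6). Each gene was represented by its probe set with the highest mean. Values below 4 were set to 4 in differences between 2 arrays and left as deposited in the model. The model was additive in diet and injection, fitted in limma 3.58.1 (R 4.3.3) across all 8650 detected genes with a mean-dependent prior and Benjamini-Hochberg adjustment at 0.05. Its p-values rest on how far diet and injection differences depart from adding up on 4 single arrays. That departure is taken mostly from other genes of like level through the prior, and it may be technical. From each of 10 pathway lists and 8 cell marker lists up to 3 genes with the widest difference could be named, and any gene called. Members and lists were chosen with earlier results of these data known. The subset of genes with a mean of 10 or more, the neighbouring genes, the motifs, Ambp, Crp, markers and list genes named as below 4 or as list examples were added after seeing values. Alternatives changed the floor, scaling, probe sets, filter and prior. Python 3.11.15 and pandas 2.3.3 were used.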

Additional observations from a re-analysis of the deposited data

Results flagged for a closer look

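For 5 members a difference between 2 arrays had opposite signs in the other pair; these differences of differences were not tested. The clodronate difference was above 0 on the low-fat and below 0 on the high-fat diet for Itih1, Itih2 and Serpina6, and the high-fat value minus the low-fat value was -0.17, -0.22 and -0.28. After centring of the arrays the high-fat values were 0.04, 0.01 and 0.04, so that the signs no longer opposed. The diet difference was above 0 with PBS and below 0 with clodronate for Itih3, Itih4 and also Serpina6 (0.23 and -0.06), and for the first pair the value with clodronate minus that with PBS was -0.095 and -0.17. After centring that of Itih3 with clodronate was 0.01, and after quantile normalization that of Itih4 with PBS was -0.0065.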

How the results depend on the processing

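Over the alternatives tried, 0 members were called for clodronate in each, and the diet call of Serpina12 held in 6 of 8. It was lost in limma without a mean-dependent prior (0 members and 0 genes called, adjusted p = 0.322) and when probe sets of a gene were averaged (0 members, difference -0.79, adjusted p = 0.0505). Its adjusted p over the other alternatives lay between 0.00116 and 0.0363. Genes called for diet, 146 as reported, were 60 with values below 4 set to 4, 42 without a filter on dim genes, 52 with averaged probe sets and 53 with all probe sets tested. Genes called for clodronate, 94 as reported, were 39 without the mean-dependent prior, of which 0 rose, and 54 with values below 4 set to 4, of which 1 rose. Of 15 calls of genes that are no members, in the pathway lists or near Serpina12 in pattern, 2 (Cd44 and Fcna) held without that prior. With centring, calls for diet were 107 higher and 58 lower, against 75 and 71, and the diet difference of Itih3 turned to 0.0094. With averaged probe sets 1 member, not 0, reached 1.5-fold between the diets with clodronate. The cause was not tested. No paired analysis was possible because each group had 1 array. Leaving out an array leaves no residual degree of freedom. Signal over background limits the second Serpina12 probe set, below 4 on both high-fat arrays.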
